A study of Homo sapiens with 12 samples.

Results

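The kinetochore is the protein assembly that forms on the centromere of each chromosome and couples it to spindle microtubules, and the condensins are ring-shaped complexes that compact chromosomes for mitosis. The 40 genes described here encode subunits of these assemblies and were taken by symbol from the 63086 genes of the series. They comprised 32 genes of the kinetochore and the chromosomal passenger complex, 7 genes of the condensins and CENPJ, which carries a CENP symbol but encodes a centriole protein. All 40 had a single row and passed the minimum mean level of 10 normalised counts for testing, as did 15987 genes in all.

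RNA was sequenced from the pancreatic carcinoma line MIA PaCa-2 in 4 lines with 3 libraries each, labelled as biological replicates. WT was unmodified. CRISPR Control had been through CRISPR-Cas9 editing of TIMP1, which encodes the secreted metalloproteinase inhibitor TIMP-1, and carried only a silent point mutation. TIMP1 KO 1 and TIMP1 KO 2 (the deficient lines, against the competent WT and CRISPR Control) were knockout clones made with guide RNAs to exon 4. All 4 lines were grown in the same medium, and the labels name no treatment. Each genotype is thus a single clone or line, and a change due to TIMP1 and a difference between clones cannot be told apart. No source used here says that the libraries of a line came from separate cultures, and p-values then measure only the spread between these libraries.

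Kinetochores are built in layers. Nucleosomes with the histone variant CENP-A mark the centromere, the constitutive centromere-associated network (CCAN) binds them, and the MIS12 and NDC80 complexes reach from the CCAN to the microtubule. The SKA complex reinforces that grip, and the corona, the spindle checkpoint and the passenger complex sense and correct faulty attachments. Most of these genes are transcribed late in the cell cycle of dividing cells, and 3 promoter elements recur among such genes: the CCAAT box, the cell cycle genes homology region (CHR) and the E2F element.

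Promoter sequences are shown first, because the letters of one such element, the CHR, were in a larger share of these genes than of all genes tested. RefSeq windows of GRCh38.p14 running from 250 bases before to 50 bases after the start were given for 34 of the 40 genes, and not for BIRC5, BUB3, CENPH, CENPJ, CENPL or CENPM. The windows are those of the 3 genes with the lowest change in the deficient lines, CENPO (chr2:24793175-24793474), NCAPH (chr2:96335516-96335815) and SKA1 (chr18:50374796-50375095), and of the gene with the highest, MIS12 (chr17:5486124-5486423, the first of 2 windows given). All 4 lie on the plus strand, and capitals mark the letters of the 3 elements.
CENPO: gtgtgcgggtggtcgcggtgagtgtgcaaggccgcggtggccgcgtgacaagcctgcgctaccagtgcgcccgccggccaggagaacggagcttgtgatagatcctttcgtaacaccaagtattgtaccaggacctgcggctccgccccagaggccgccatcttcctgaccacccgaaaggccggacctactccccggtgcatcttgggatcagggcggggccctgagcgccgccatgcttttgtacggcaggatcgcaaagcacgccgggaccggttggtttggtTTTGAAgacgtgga
NCAPH: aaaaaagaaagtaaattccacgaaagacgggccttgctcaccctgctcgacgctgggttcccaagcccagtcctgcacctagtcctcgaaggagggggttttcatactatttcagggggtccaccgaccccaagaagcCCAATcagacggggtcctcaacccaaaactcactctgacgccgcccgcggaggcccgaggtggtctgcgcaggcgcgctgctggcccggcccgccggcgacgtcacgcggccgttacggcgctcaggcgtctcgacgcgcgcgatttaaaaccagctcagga
SKA1: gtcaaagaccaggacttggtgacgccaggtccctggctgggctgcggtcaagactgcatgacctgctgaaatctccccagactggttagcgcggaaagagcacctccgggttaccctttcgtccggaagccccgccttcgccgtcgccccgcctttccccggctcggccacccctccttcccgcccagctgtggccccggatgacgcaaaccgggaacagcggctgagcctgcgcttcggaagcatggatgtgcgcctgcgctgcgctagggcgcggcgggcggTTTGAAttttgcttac
MIS12: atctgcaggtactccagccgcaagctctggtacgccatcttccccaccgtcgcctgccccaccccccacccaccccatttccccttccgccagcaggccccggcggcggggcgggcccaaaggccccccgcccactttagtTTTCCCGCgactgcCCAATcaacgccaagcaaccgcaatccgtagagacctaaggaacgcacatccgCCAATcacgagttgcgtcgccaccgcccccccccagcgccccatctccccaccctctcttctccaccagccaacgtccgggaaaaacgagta

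The letters searched on both strands were CCAAT for the CCAAT box, TTTGAA and TTCGAA for the CHR, and TTTCCCGC, TTTGGCGC, TTTCGCGC and TTTGCCGC for the E2F element. TTCGAA reads the same on both strands. A gene was counted when any of its windows held the letters. CHR letters from 100 bases before the start onwards were in 20 of the 34 genes (58.8%), against 6.54% of the 10822 tested genes with a window, 5 of 12 proliferation markers (41.7%) and 6 of 17 other kinetochore and condensin genes (35.3%). Over the whole window the CHR was in 22 of 34 (64.7%, against 15.1% of the tested genes, 58.3% of the proliferation markers and 41.2% of the other kinetochore and condensin genes), the CCAAT box in 22 (64.7%, against 42.5% of the tested genes) and E2F letters in 4 (11.8%, against 6.52%). The CCAAT box was in 91.7% and E2F letters in 33.3% of the proliferation markers, both above the shares of the 34 genes. These shares were 52.9% and 11.8% in the other kinetochore and condensin genes, and 58.3% and 41.7% in cohesin genes. CHR letters were in 33.3% of the cohesin genes over the whole window and in 25% from 100 bases before the start onwards. A match is a description of the letters, and binding was not measured.

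The 30 bases around the CHR are shown for the lowest-changing gene of each group whose window held 12 bases on both sides of it, and for CENPC, which did not pass the test. These were picked after the values were seen. They are read in the direction of TTTGAA or TTCGAA, in capitals, at chr2:26786026-26786055 (plus) for CENPA, chr6:126340120-126340149 (plus) for CENPW, chr2:168890416-168890445 (minus) for SPC25, chr10:56361273-56361302 (plus) for ZWINT, chr13:21176538-21176567 (plus) for SKA3, chr4:120066807-120066836 (minus) for MAD2L1, chr11:62123989-62124018 (plus) for INCENP, chr3:160399563-160399592 (minus) for SMC4, chr11:134223953-134223982 (minus) for NCAPD3 and chr4:67545576-67545605 (plus) for CENPC, with the strand in parentheses.
CENPA: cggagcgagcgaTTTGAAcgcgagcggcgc
CENPW: gttggcggcggaTTCGAAcgttcggactga
SPC25: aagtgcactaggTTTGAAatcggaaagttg
ZWINT: ccctaagattacTTTGAAgtcacagtcgac
SKA3: tcccgccactagTTTGAAtctcggcgccgg
MAD2L1: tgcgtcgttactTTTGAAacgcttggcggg
INCENP: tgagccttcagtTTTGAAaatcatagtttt
SMC4: gggatccactaaTTTGAAaaaaagtgcggc
NCAPD3: gcgggagcgagcTTTGAAagttgagcacgg
CENPC: cctgtgcctgggTTTGAAcccggagacaca
The 20 genes with the CHR near the start had a median log2 fold change in deficient against competent lines of -0.63, from -0.92 to 0.07, and 19 of them were lower by the test given below. The 14 genes with a window but without it had a median of -0.36, from -0.92 to 0.18, and 12 were lower. Over all genes tested, 33.0% were lower. The order of these medians was not the same in both deficient lines. In KO 2 against WT they were -1.01 with the CHR and -0.77 without it, and in KO 1 against WT -0.25 and -0.31. The difference between the genes with and without the CHR was not tested. NCAPH, the second lowest gene of the 40, had no CHR letters in its window, and CENPC had them and did not pass the test.

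The libraries held between 26908701 and 36093563 reads in genes. TIMP1 itself (ENSG00000102265.12, chrX:47582408-47586789, plus strand) had a mean normalised count of 3553 ± 274 in the WT libraries, 2690.4 ± 357 in those of CRISPR Control, 1599.6 ± 32.8 in those of KO 1 and 1161 ± 28.8 in those of KO 2 (SD, n = 3 each), so the deficient libraries kept part of its RNA. All 5 carcinoma line markers were detected in every line, and their summed levels ran from 264622 to 284976 in WT, from 106017 to 134201 in CRISPR Control, from 308008 to 315114 in KO 1 and from 250012 to 270564 in KO 2. Their low sum in CRISPR Control lay mainly in the keratins, and KRT8 held 30.7% of its WT level there. By the test given below, 3 of the 5 were lower in KO 2 than in WT and 1 was higher (27.9% and 27.1% of all genes). Their log2 fold changes in KO 2 against WT ran from -0.62 to 1.74. Of 12 markers of leukocytes, endothelium, fibroblasts, acinar and islet cells, INS was at 0 in all libraries, and 11 fell under the minimum level. The exception was PDGFRA, a fibroblast receptor gene at 283 ± 18.5 in KO 2 and 23.6 ± 2.18 in WT. The 12 summed to between 41.9 and 46.4 in WT, between 23.1 and 34.5 in CRISPR Control, between 9.0 and 20.5 in KO 1 and between 301 and 326 in KO 2. The share of reads in mitochondrial genes was 0.671 to 0.712% in WT, 0.542 to 0.583% in CRISPR Control, 0.770 to 0.937% in KO 1 and 0.872 to 1.16% in KO 2. The part of these markers and shares in the results was not tested.

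The kinetochore and condensin genes as a group were lower in both deficient lines, most in KO 2. Summed over the 40 genes, the mean normalised count was 127361 ± 2262 in the WT libraries, 118967 ± 3450 in those of CRISPR Control, 103955 ± 166 in those of KO 1 and 66194 ± 2615 in those of KO 2 (SD, n = 3 each), or 93.4%, 81.6% and 52.0% of WT in the last 3. The 40 genes took 0.394 to 0.417% of the reads in genes in WT, 0.351 to 0.389% in CRISPR Control, 0.327 to 0.331% in KO 1 and 0.218 to 0.236% in KO 2. The ranges of the 4 lines did not overlap, and KO 2 stood farthest from the rest. In such bulk RNA, fewer dividing cells and less RNA per cell cannot be told apart.

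**Figure D1:**
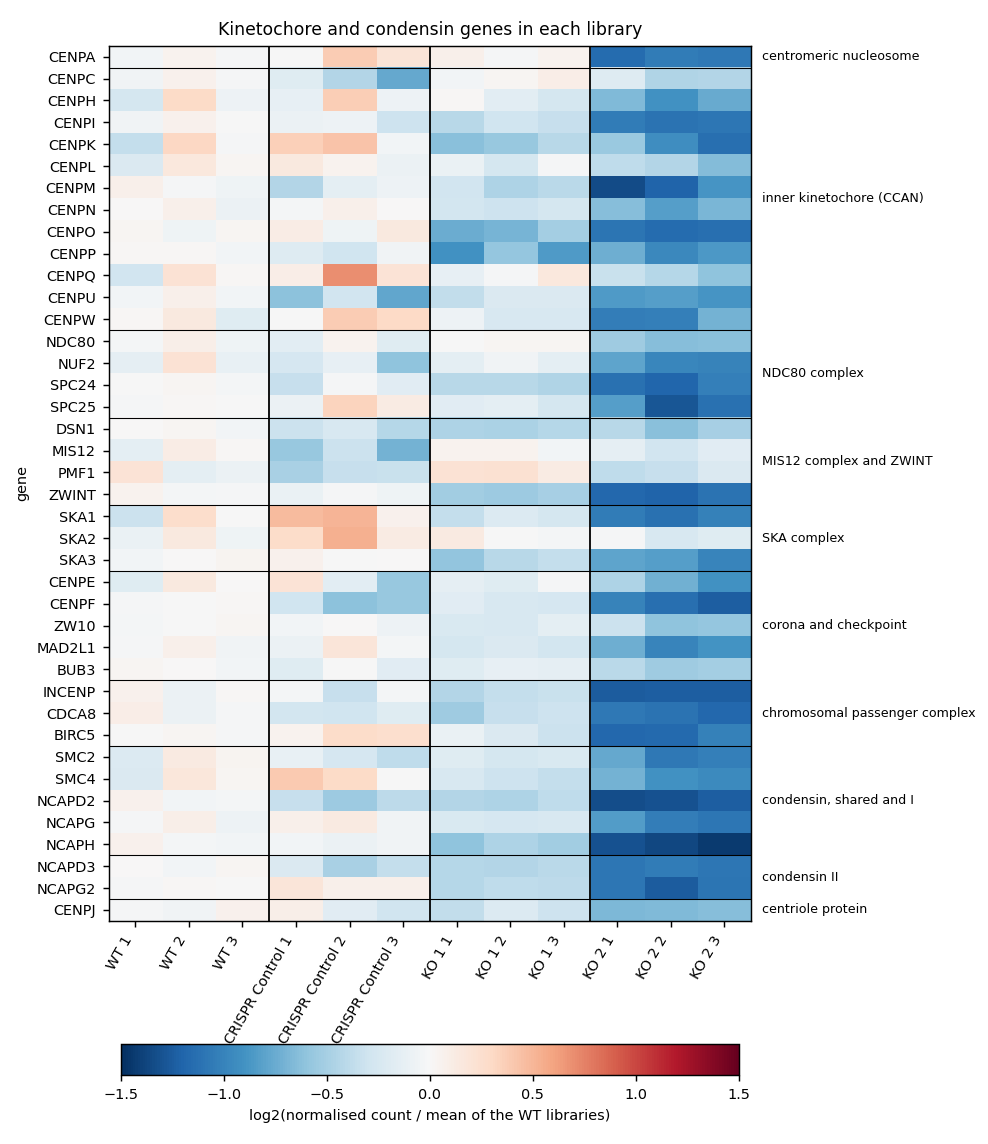
Level of each of the 40 genes (rows, by role) in each of the 12 libraries (columns, by line and replicate), as log2 of the normalised count over the mean of the WT libraries. The 3 KO 2 columns are blue in nearly all rows, the KO 1 columns are paler, and the CRISPR Control columns hold both blue and red rows.

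Each gene was then tested with limma on log2(normalised count + 1), with Benjamini-Hochberg adjustment over the 15987 genes, and log2 fold changes and SEs are on that scale. Between deficient and competent lines 37 of the 40 genes were lower and 1 was higher at an adjusted p under 0.05, against 33.0% of all genes lower and 32.9% higher. The median change of the 40 was -0.60, while that of all tested genes was 0.00. In KO 2 against WT 38 genes were lower and none was higher (27.9% and 27.1% of all genes), with a median of -0.89. In KO 1 against WT 22 were lower and none was higher (17.5% and 18.0%), with a median of -0.25. Higher genes numbered 0 in both comparisons also at an unadjusted p under 0.05 in limma and with edgeR and DESeq2. Without WT replicate 1, KO 1 against WT had 20 lower genes and 1 higher, PMF1. KO 1 and KO 2 were compared with the same WT libraries. Against CRISPR Control, 37 were lower and 1 higher in KO 2 (34.4% and 33.3%, median -0.84), and 19 were lower and 5 higher in KO 1 (31.3% and 31.7%, median -0.19).

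In CRISPR Control 11 of the 40 genes were lower and 3 higher than in WT, with a median of -0.08. The share of lower genes was near that of all genes (26.3%), and the share of higher genes was under that of all genes (27.2%). The 3 higher genes were SKA1 (0.37), SKA2 (0.31) and BIRC5 (0.19). The number of higher genes depended on single libraries, as limma called 0 without WT replicate 1, WT replicate 3 or CRISPR Control replicate 2 (2, 2 and 0 at an unadjusted p under 0.05), and 5 without WT replicate 2 or CRISPR Control replicate 1, while with all libraries edgeR called 2 and DESeq2 called 4. The number of lower genes ran from 9 to 13 when 1 library was left out. With library totals made equal in place of the deposited scaling, 35 genes passed in KO 2 against WT and 30 in KO 2 against KO 1. Over all genes that scaling shifted the calls from 4330 higher and 4461 lower to 5235 and 3500 in KO 2 against WT, and from 2890 and 3210 to 3890 and 2046 in KO 2 against KO 1. It moved the median of all genes in KO 2 against CRISPR Control from -0.01 to 0.11.

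Counted over libraries, 16 of the 40 genes had all 6 deficient libraries below all 6 competent ones, and none had them all above (12.4% and 12.3% of all genes). In 14 of them the KO 2 libraries also lay below the KO 1 libraries, as in 5.85% of all genes. CENPK and CENPP were the exceptions, as their KO 1 and KO 2 libraries overlapped. KO 2 lay below the 9 other libraries in 32 genes (13.8% of all genes). The other 8 were CENPC, CENPK, CENPP, DSN1, MIS12, PMF1, SKA2 and CENPE. KO 2 had the lowest mean of the 4 lines in 37 genes, and CRISPR Control had it in CENPC, MIS12 and PMF1. The lowest line mean was not counted over all genes, so no share stands beside this number.

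**Figure D2:**
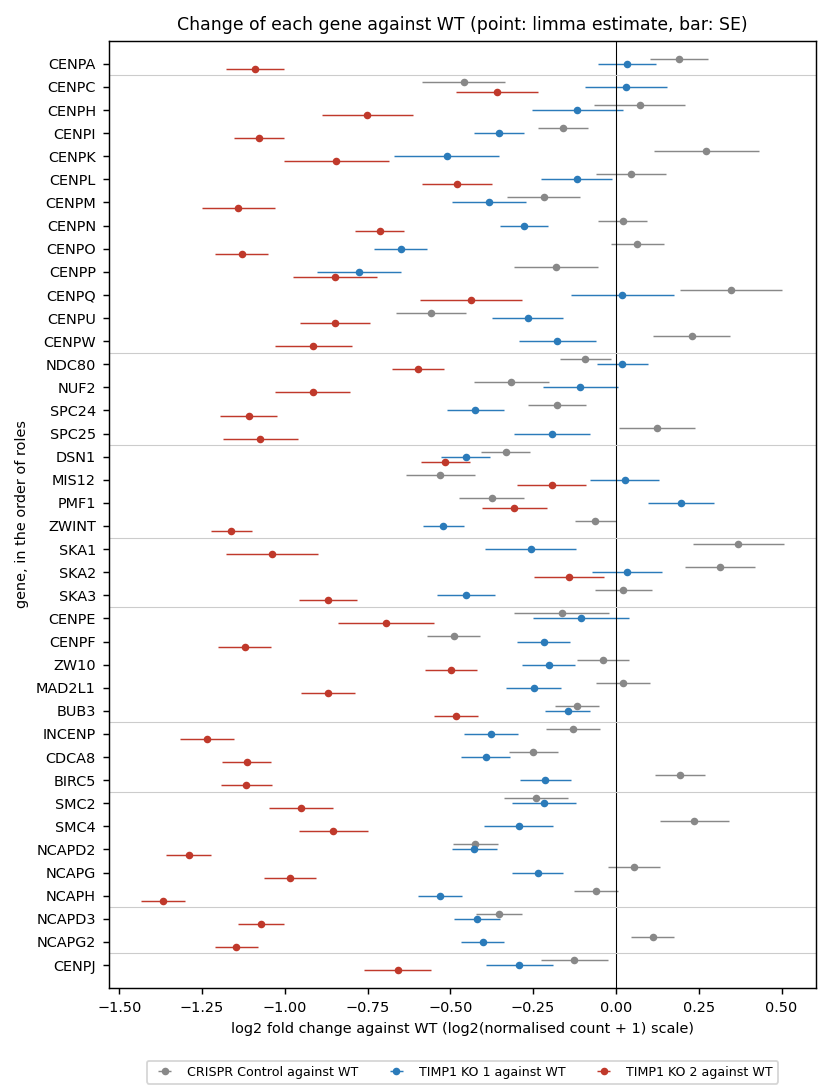
Log2 fold change of each gene against WT (horizontal axis, log2(normalised count + 1) scale) in CRISPR Control (grey), KO 1 (blue) and KO 2 (red). Points are limma estimates from 3 libraries a line and bars are SEs. All 40 KO 2 points lie below 0, from -1.37 for NCAPH to -0.14 for SKA2, while KO 1 runs from -0.78 for CENPP to 0.20 for PMF1 and CRISPR Control lies on both sides of 0.

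CENPA (ENSG00000115163.15, chr2:26764289-26801067, plus strand), the histone H3 variant that marks the centromere, was the gene with the largest step between the deficient lines. Its normalised counts were 1439.7, 1542 and 1460.2 in the WT libraries, 1478, 1921 and 1697 in those of CRISPR Control, 1559, 1457 and 1534 in those of KO 1, and 664, 715 and 703 in those of KO 2. KO 1 overlapped the competent lines, and KO 2 lay below all of them at 46.9% of the WT mean. The log2 fold change against WT was -1.09 (adjusted p 5.07e-09, SE 0.09) in KO 2, while in KO 1 it was 0.03 (adjusted p 0.797, SE 0.09) and did not pass. An exon of SLC35F6 on the same strand overlaps this gene in the annotation, and reads there may have been split between them.

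The 12 CCAN genes of the set had a median of -0.57 between deficient and competent lines. Of them 11 were lower there, as were 33.0% of all genes. CENPO (ENSG00000138092.11, chr2:24793136-24822376, plus strand), a subunit of the CENP-O/P/Q/U/R branch, had the lowest change of all 40. Its normalised counts were 2212, 2074 and 2203 in the WT libraries, 2328, 2066 and 2403 in those of CRISPR Control, 1292, 1337 and 1515 in those of KO 1, and 1009.8, 968 and 984 in those of KO 2. The lines stood in 3 separate levels, with the competent lines together, KO 1 below them and KO 2 lowest. The change was -0.92 (adjusted p 5.17e-11, SE 0.06) between deficient and competent lines, -0.65 (adjusted p 3.65e-06, SE 0.08) in KO 1 and -1.13 (adjusted p 9.45e-10, SE 0.08) in KO 2 against WT. The gene overlaps ADCY3 and PTRHD1 on the opposite strand, and the strand setting of the counting was not given in the sources used here.

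The partners of CENPO in that branch did not all follow the same pattern. CENPP was at 161 ± 20.8 in KO 1 and 152 ± 12.7 in KO 2 against 275 ± 6.98 in WT, and its drop of -0.78 in KO 1 was the deepest of the 40 genes there. CENPQ moved by 0.02 in KO 1 (adjusted p 0.937) and by -0.44 in KO 2 (adjusted p 0.0223). CENPU (ENSG00000151725.12, chr4:184694085-184734130, minus strand) had normalised counts of 907, 988 and 912 in the WT libraries, 611, 767 and 544 in those of CRISPR Control, 723, 806 and 805 in those of KO 1, and 521, 528 and 508 in those of KO 2. CRISPR Control had a mean below that of KO 1 and lay just above KO 2 in this gene, and its change against WT was -0.56 (adjusted p 0.000225, SE 0.11), next to -0.85 (adjusted p 1.88e-06, SE 0.11) in KO 2 and -0.27 (adjusted p 0.0582, SE 0.11) in KO 1.

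In the CENP-H/I/K/M branch, which links the CCAN to its other subunits, the changes between deficient and competent lines were -0.47 for CENPH, -0.64 for CENPI, -0.81 for CENPK and -0.65 for CENPM, and all passed. CENPL and CENPN, which bind the CENP-A nucleosome, were lower by -0.32 and -0.51, and CENPW, which pairs with CENPT, by -0.66. In KO 1 against WT 6 of the 12 CCAN genes were lower (CENPI, CENPK, CENPM, CENPN, CENPO and CENPP), and in KO 2 all 12. Over all genes these shares were 17.5% and 27.9%.

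CENPC (ENSG00000145241.11, chr4:67468762-67545503, minus strand) encodes the CCAN protein that binds both the CENP-A nucleosome and the MIS12 complex, and it was the only CCAN gene of the set that did not pass between deficient and competent lines, at 0.07 (adjusted p 0.53, SE 0.09). Its normalised counts were 531, 577 and 545 in the WT libraries, 487, 407 and 323 in those of CRISPR Control, 535, 561 and 593 in those of KO 1, and 483, 402 and 407 in those of KO 2. KO 1 lay at the level of WT, and KO 2 and CRISPR Control were both below it, by -0.36 (adjusted p 0.0202, SE 0.12) and -0.46 (adjusted p 0.00448, SE 0.12). The sign of the first value is not stable, since it was -0.01 without CRISPR Control replicate 3 and -0.04 with quantile normalization.

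All 4 genes of the NDC80 complex, the rod that holds the microtubule, were lower between deficient and competent lines (33.0% of all genes). The median was -0.52. SPC25 (ENSG00000152253.9, chr2:168834132-168913371, minus strand) had normalised counts of 908, 928 and 913 in the WT libraries, 862, 1158 and 998 in those of CRISPR Control, 815, 827 and 765 in those of KO 1, and 519, 377 and 421 in those of KO 2. All deficient libraries were below all competent ones, the change was -0.69 (adjusted p 3.96e-07, SE 0.08), and KO 2 held 47.9% of WT. NDC80 (ENSG00000080986.13, chr18:2571557-2616635, plus strand), which gives the complex its name, changed least of the 4, with 2020.4, 2201 and 1977 in the WT libraries, 1854, 2148 and 1819 in those of CRISPR Control, 2062, 2109 and 2102 in those of KO 1, and 1427, 1323 and 1342 in those of KO 2. KO 1 sat within the range of WT and KO 2 lay below it at 66.0%, with changes against WT of 0.02 (adjusted p 0.877, SE 0.08) and -0.60 (adjusted p 2.77e-06, SE 0.08). NUF2 and SPC24 stood at -0.11 and -0.42 in KO 1 and at -0.92 and -1.11 in KO 2. Of the 4, SPC24 alone passed in KO 1 against WT (adjusted p 0.000878), where 17.5% of all genes were lower.

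In the group of the MIS12 complex and its partner ZWINT, 2 of 4 genes were lower between deficient and competent lines (ZWINT and DSN1). That was the smallest share among the role groups, and over all genes it was 33.0%. ZWINT (ENSG00000122952.17, chr10:56357227-56361273, minus strand), a partner of the outer kinetochore scaffold, had 6180.0, 5840.3 and 5886 in the WT libraries, 5551, 5885 and 5704 in those of CRISPR Control, 4156, 4095 and 4222 in those of KO 1, and 2638, 2590.0 and 2773 in those of KO 2. The lines again formed 3 levels, and the change between deficient and competent lines was -0.81 (adjusted p 8.47e-12, SE 0.04). MIS12 (ENSG00000167842.16, chr17:5486285-5490814, plus strand), the subunit that names the complex, was the only one of the 40 that was higher in the deficient lines, at 0.18 (adjusted p 0.0375, SE 0.07). Its normalised counts were 592, 707 and 663 in the WT libraries, 439.6, 523 and 400.0 in those of CRISPR Control, 677, 678 and 638 in those of KO 1, and 595, 535 and 583 in those of KO 2. The range of WT overlapped those of both deficient lines, and CRISPR Control lay below all 3, by -0.53 (adjusted p 0.000315, SE 0.10) against WT. Neither deficient line passed against WT, with 0.03 in KO 1 and -0.19 in KO 2. The call of MIS12 between deficient and competent lines was lost with no filter on low genes (adjusted p 0.0579), with quantile normalization (0.271) and without any 1 of 8 libraries, WT replicates 1 and 3, CRISPR Control replicates 1 and 3, KO 1 replicates 1 and 2, and KO 2 replicates 1 and 3 (0.0561 to 0.104). DERL2 overlaps this gene on the opposite strand.

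PMF1 (ENSG00000160783.19, chr1:156212993-156240042, plus strand), another MIS12 complex subunit, had normalised counts of 842, 659 and 689.6 in the WT libraries, 523, 576 and 581 in those of CRISPR Control, 847, 859 and 792 in those of KO 1, and 560.0, 576 and 627 in those of KO 2. KO 1 and WT were high, and KO 2 and CRISPR Control were low and overlapped. Between deficient and competent lines it did not pass at 0.13 (adjusted p 0.102, SE 0.07), while without WT replicate 1 it was at 0.19 and passed (adjusted p 0.0190), as it did with equal library totals (adjusted p 0.0194). Against WT, KO 2 was lower by -0.31 (adjusted p 0.0131, SE 0.10). The readthrough gene PMF1-BGLAP shares its exons, and reads may have been split between them. DSN1 was lower in CRISPR Control, KO 1 and KO 2 alike, at -0.33, -0.45 and -0.51 against WT, and KO 2 against KO 1 did not pass at -0.06 (SE 0.08, adjusted p 0.557).

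**Figure D3:**
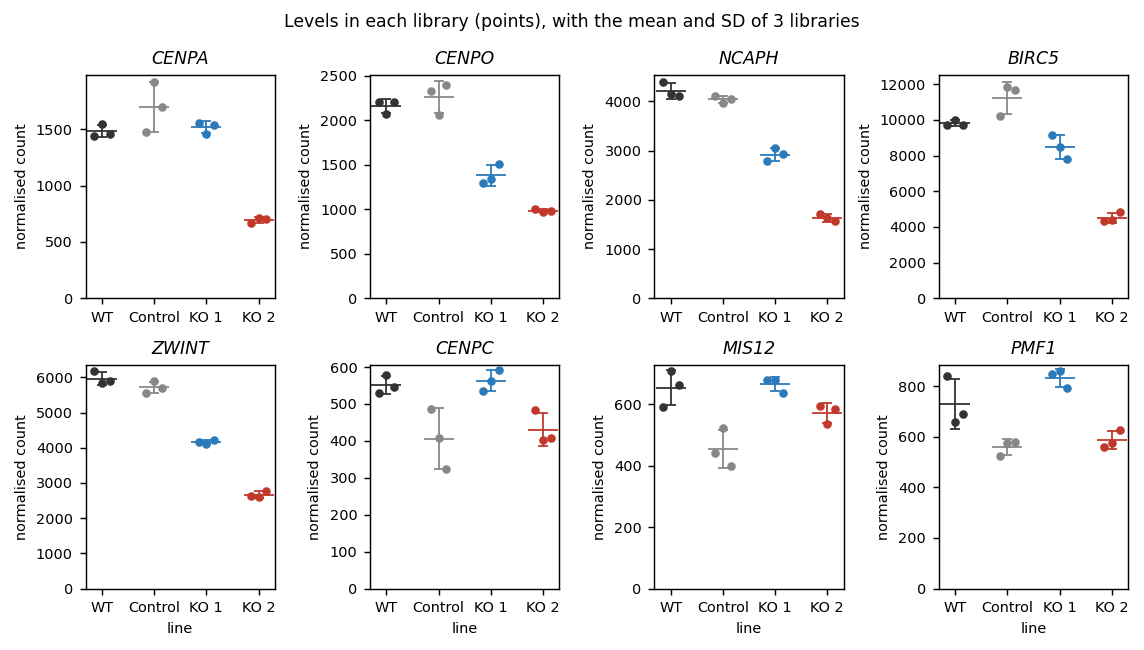
Normalised counts of 8 genes in each library (points), with the mean and SD of the 3 libraries of each line, on axes from 0. CENPO, NCAPH and ZWINT fall in steps from the competent lines to KO 1 and KO 2, CENPA and BIRC5 fall mainly in KO 2, and CENPC, MIS12 and PMF1 are lowest in CRISPR Control.

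The SKA complex tracks along the microtubule beside NDC80. SKA1 (ENSG00000154839.10, chr18:50375040-50394168, plus strand) had 351, 524 and 437 in the WT libraries, 609, 624 and 457 in those of CRISPR Control, 341, 378 and 364 in those of KO 1, and 212, 201 and 216 in those of KO 2 normalised counts. KO 2 lay far below the other lines, KO 1 overlapped WT, and CRISPR Control reached highest. The change was -0.83 (adjusted p 4.6e-07, SE 0.10) between deficient and competent lines, and against WT alone it was -0.26 (adjusted p 0.16, SE 0.14) in KO 1 and -1.04 (adjusted p 3.91e-06, SE 0.14) in KO 2. SKA2 (ENSG00000182628.13, chr17:59109857-59155260, minus strand) had 692, 821 and 705 in the WT libraries, 897, 1066 and 806 in those of CRISPR Control, 809, 734 and 723 in those of KO 1, and 729, 625 and 653 in those of KO 2. Its deficient libraries overlapped those of WT, neither KO 1 nor KO 2 passed against WT, and the lower call of -0.21 (adjusted p 0.0188, SE 0.08) between deficient and competent lines was lost with equal library totals and without WT replicate 2, CRISPR Control replicate 2 or KO 2 replicate 2 (adjusted p 0.0858, 0.0602, 0.0544 and 0.0533). SKA3 was lower by -0.45 in KO 1 and -0.87 in KO 2.

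All 5 corona and checkpoint genes were lower between deficient and competent lines (33.0% of all genes), with a median of -0.33. MAD2L1 (ENSG00000164109.14, chr4:120055623-120066858, minus strand) encodes MAD2, which holds back anaphase until chromosomes are attached, and had 2649.7, 2826 and 2595 in the WT libraries, 2529.9, 3049 and 2632 in those of CRISPR Control, 2241, 2316 and 2231 in those of KO 1, and 1616, 1358 and 1449 in those of KO 2. The deficient libraries lay below the competent ones in all cases, and the change was -0.57 (adjusted p 7.21e-08, SE 0.06). BUB3 (ENSG00000154473.18, chr10:123154402-123170467, plus strand), which brings checkpoint proteins to the kinetochore, changed least of the 5. Its normalised counts were 11525, 11394 and 10986 in the WT libraries, 9976, 11261 and 10051 in those of CRISPR Control, 9927, 10388 and 10328 in those of KO 1, and 8545, 7815 and 7906 in those of KO 2. KO 1 overlapped CRISPR Control, KO 2 was below all others at 71.6% of WT, and the change was -0.26 (adjusted p 0.000113, SE 0.05).

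CENPF (ENSG00000117724.15, chr1:214603185-214664574, plus strand), a large corona protein of late cell cycle, had one of the 3 largest steps between the deficient lines. Its normalised counts were 10617, 10724 and 10859 in the WT libraries, 8747, 7031 and 7249.5 in those of CRISPR Control, 9552, 9108 and 9019 in those of KO 1, and 5375, 4885 and 4570.5 in those of KO 2. CRISPR Control lay below KO 1 here, and KO 2 was lowest at 46.1% of WT. The changes against WT were -0.49 (adjusted p 5.49e-05, SE 0.08) in CRISPR Control, -0.22 (adjusted p 0.0431, SE 0.08) in KO 1 and -1.12 (adjusted p 1.28e-09, SE 0.08) in KO 2. CENPE, the plus-end-directed kinesin of the corona, was at -0.11 in KO 1 (adjusted p 0.609) and -0.69 in KO 2 (adjusted p 0.000486), and ZW10, which recruits dynein, at -0.20 (adjusted p 0.0513) and -0.50 (adjusted p 2.93e-05).

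The 3 genes of the chromosomal passenger complex, which corrects attachments through the kinase Aurora B, were lower in both deficient lines against WT. Against CRISPR Control all 3 were lower in KO 2 and 2 in KO 1. Over all genes 17.5% were lower in KO 1 and 27.9% in KO 2 against WT. Against CRISPR Control these shares were 31.3% and 34.4%. BIRC5 (ENSG00000089685.15, chr17:78214186-78225636, plus strand) encodes survivin and had 9744, 10000.0 and 9700.3 in the WT libraries, 10208, 11847 and 11690.0 in those of CRISPR Control, 9138, 8477 and 7827 in those of KO 1, and 4349.8, 4391 and 4855 in those of KO 2. CRISPR Control was highest, KO 1 lay below WT, and KO 2 was at 46.2% of WT. The change was -0.76 (adjusted p 4.26e-10, SE 0.05) between deficient and competent lines, the lowest of the 3. CDCA8 (ENSG00000134690.11, chr1:37692481-37709719, plus strand) encodes borealin and had 6083, 5319 and 5579.8 in the WT libraries, 4667, 4601 and 5008 in those of CRISPR Control, 3916, 4464 and 4555 in those of KO 1, and 2688, 2630.4 and 2509 in those of KO 2. The highest KO 1 library stood just under the lowest CRISPR Control library, and the change was -0.63 (adjusted p 4.94e-09, SE 0.05). INCENP, the scaffold of the complex, was lower by -0.38 in KO 1 and -1.23 in KO 2, where it held 42.4% of WT.

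Against WT, the 7 condensin genes were lower in both deficient lines, except for SMC2 in KO 1. In KO 1 against WT 6 of 7 condensin genes passed as lower, with a median of -0.40. Of the 32 kinetochore and passenger genes 15 did, with a median of -0.22. In KO 2 against WT the medians were -1.07 and -0.86, and 7 of 7 and 30 of 32 passed as lower. Over all genes 17.5% were lower in KO 1 and 27.9% in KO 2 against WT. In KO 1 against CRISPR Control 4 of 7 and 15 of 32 were lower (31.3% of all genes), with medians of -0.29 and -0.19. None of the condensin genes was higher there, and 5 of the 32 were (31.7% of all genes). In KO 2 against CRISPR Control 7 of 7 and 29 of 32 were lower (34.4% of all genes), with medians of -1.04 and -0.80. The summed condensin counts were 77.1% of WT in KO 1 and 46.8% in KO 2, and those of the kinetochore and passenger genes 84.0% and 54.6%. The difference between these groups was not tested.

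NCAPH (ENSG00000121152.10, chr2:96335766-96377091, plus strand), the kleisin that closes the condensin I ring, had normalised counts of 4405, 4143 and 4109 in the WT libraries, 4113, 3976 and 4053 in those of CRISPR Control, 2786, 3049 and 2928 in those of KO 1, and 1707, 1632 and 1562 in those of KO 2. WT and CRISPR Control lay together, KO 1 was below both and KO 2 below KO 1, with 69.2% and 38.7% of WT. Its KO 2 change of -1.37 (adjusted p 4.75e-12, SE 0.07) was the largest of the 40 genes, and that of KO 1 was -0.53 (adjusted p 4.55e-06, SE 0.07). SMC2 (ENSG00000136824.19, chr9:104094260-104141419, plus strand), an ATPase core shared by both condensins, changed least of this group, with 3183, 4048 and 3797 in the WT libraries, 3401, 3086 and 2816 in those of CRISPR Control, 3242, 3062 and 3129.8 in those of KO 1, and 2153, 1747 and 1801 in those of KO 2. KO 1 overlapped both competent lines and did not pass against WT at -0.22 (adjusted p 0.0876, SE 0.10), while KO 2 did at -0.95 (adjusted p 1.31e-07, SE 0.10). NCAPD2 and NCAPG, the other condensin I subunits, and SMC4, the second ATPase, were at -0.43, -0.24 and -0.29 in KO 1 and at -1.29, -0.98 and -0.85 in KO 2. NCAPD2 was also lower in CRISPR Control than in WT, by -0.42.

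In condensin II, NCAPG2 (ENSG00000146918.20, chr7:158631169-158704804, minus strand) had 6576, 6690.3 and 6624 in the WT libraries, 7531, 6975 and 6988 in those of CRISPR Control, 4910.2, 5080.2 and 5063 in those of KO 1, and 3116, 2787 and 3091 in those of KO 2. All deficient libraries lay below all competent ones, and the change was -0.83 (adjusted p 1.22e-11, SE 0.05). NCAPD3 (ENSG00000151503.14, chr11:134150113-134225504, minus strand) had 8289, 8016 and 8391 in the WT libraries, 7094, 5858 and 6423 in those of CRISPR Control, 6144, 6077 and 6232 in those of KO 1, and 3886, 3986 and 3879 in those of KO 2. CRISPR Control reached down to the level of KO 1 in this gene, and the change was -0.57 (adjusted p 7.36e-09, SE 0.05). CENPJ (ENSG00000151849.16, chr13:24882279-24922889, minus strand), the centriole gene, had 630.5, 613 and 667 in the WT libraries, 679, 565 and 518 in those of CRISPR Control, 493, 554 and 514 in those of KO 1, and 398, 402 and 408 in those of KO 2. It was lower by -0.29 (adjusted p 0.0306, SE 0.10) in KO 1 and -0.66 (adjusted p 2.08e-05, SE 0.10) in KO 2.

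Levels between genes were compared per kilobase of the main transcript. In WT, BIRC5 (3813), ZWINT (3214), CDCA8 (2387) and NCAPD2 (2020.1) had the highest mean normalised counts per kilobase, and CENPP (33.1) and CENPC (80.8) the lowest. The spread within role groups was wide. In WT, ZWINT, the partner of the MIS12 complex, stood at 3214, and the subunits DSN1, PMF1 and MIS12 at 1065, 684 and 261. In KO 2 these 4 genes stood at 1436, 746, 550.1 and 228. The group kept its order while its ends, ZWINT and MIS12, drew closer. In the condensins, SMC4 stood at 1477 and SMC2 at 620.0 in WT, and at 815 and 321 in KO 2.

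**Figure D4:**
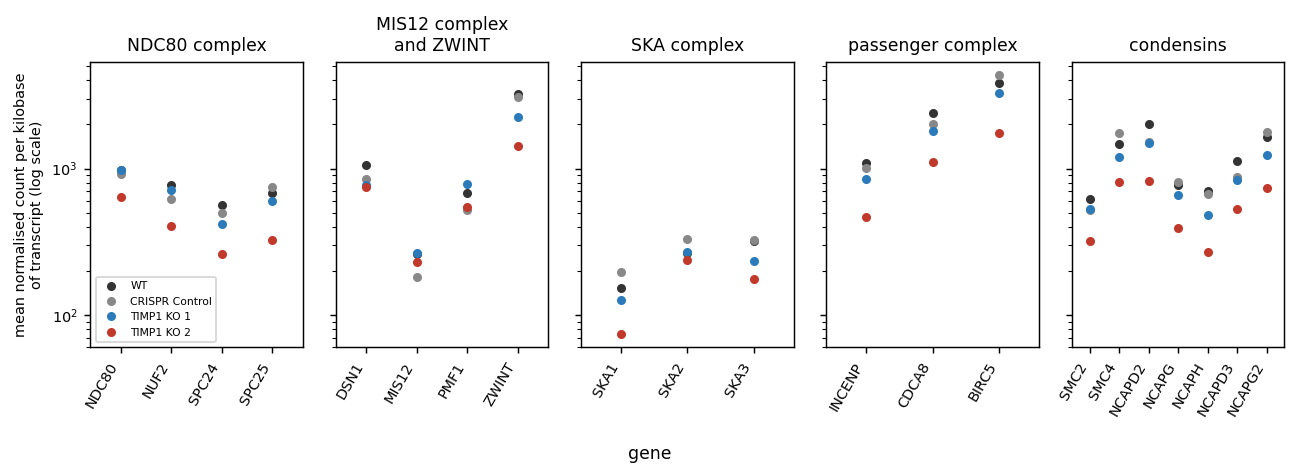
Mean normalised count per kilobase of transcript (log axis) of the subunits of 5 groups in the 4 lines, each point the mean of 3 libraries. KO 2 lies lowest in all genes shown except MIS12 and PMF1, where CRISPR Control is lowest, and ZWINT and BIRC5 stand at the top of their groups.

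The deficient lines were compared with each other to ask whether their changes were equal. Of the 40 genes, 35 were lower in KO 2 than in KO 1 and 0 were higher (20.1% and 18.1% of all genes), with a median of -0.63. The number higher was 0 at an unadjusted p under 0.05 in limma as well, and 0 with edgeR and DESeq2. The largest steps were those of CENPA (-1.13 (adjusted p 8.83e-09, SE 0.09)), CENPF (-0.90 (adjusted p 6.28e-08, SE 0.08)) and BIRC5 (-0.90 (adjusted p 2.82e-08, SE 0.08)). The 5 genes that did not pass were CENPK (-0.33), CENPP (-0.07), DSN1 (-0.06), MIS12 (-0.22) and SKA2 (-0.18).

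Genes with related roles outside the set were read from lists written with earlier results of these data known. Of 23 other kinetochore and condensin genes, 20 were lower between deficient and competent lines (33.0% of all genes), with a median of -0.57. The other 3 did not pass, and the highest change was 0.04. SPDL1, which recruits dynein to kinetochores, was lowest at -1.29 (adjusted p 3.63e-12, SE 0.07), and it was also higher in CRISPR Control than in WT by 0.77. All 15 proliferation markers were lower, with a median of -0.71, from -1.08 for the mitotic kinase PLK1 to -0.37 for the spindle factor TPX2. Their summed counts ran from 154271 to 156238 in WT, 151167 to 154184 in CRISPR Control, 121762 to 125557 in KO 1 and 72264 to 75395 in KO 2, or 98.2%, 80.0% and 47.4% of WT on average in the last 3 lines. The summed level of the 40 genes moved in the same order of lines, and the part of proliferation in it was not tested.

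Position on the chromosome was not used to choose the genes. For each of the 40, the median change of the 10 tested genes on each side lay between -0.38 and 0.34 between deficient and competent lines, and 38 genes were below the median of their neighbours. Against WT that number was 35 in KO 1 and 39 in KO 2, and against CRISPR Control it was 27 in KO 1 and 38 in KO 2. The neighbour medians centred at -0.01 between deficient and competent lines, so such counts largely restate the lower values of the 40 genes themselves. The share over all genes was not counted. ZWINT, at -0.46, lay above its neighbours at -0.55 in KO 1 against CRISPR Control. The neighbours of ZWINT on chromosome 10 and of ZW10 on chromosome 11 had the lowest medians, -0.38 and -0.33. ZW10 itself stood at -0.33, level with its neighbours. The neighbours were higher in CRISPR Control than in WT, with median changes of 0.45 around ZWINT and 0.26 around ZW10, while ZWINT and ZW10 moved by -0.06 and -0.04 there. Against WT alone the neighbours of ZWINT were at -0.14 in KO 1 and -0.07 in KO 2.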

How the data were processed

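Total RNA of 12 MIA PaCa-2 libraries was sequenced. The authors trimmed reads with Cutadapt, mapped them to GRCh38 with STAR, counted them per gene and divided the counts by a DESeq2 size factor, so the deposited values are a signal of scaled counts. The scaling would remove a change common to most genes. Dividing by the value of 1 read returned whole reads for 100% of positive values (tolerance 0.01 reads). A blank row and 4 columns of line means were left out. Groups came from the sample titles. The 15987 genes with a mean of at least 10, holding 99.9% of the reads, were tested with limma 3.58.1 in R 4.3.3 on log2(value + 1), with 4 line means from all 12 libraries, a trended prior, two-sided tests and Benjamini-Hochberg adjustment at 0.05. This scale understates changes of low genes. The test was tried on simulated data. Alternatives used other pseudocounts, filters and scalings, edgeR 4.0.16 and DESeq2 1.42.0 on recovered reads, only the lines compared, a replicate block, and each library left out.

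Positions and transcript lengths are from GENCODE 44 (99.1% of identifiers matched). The genes and lists were chosen with earlier results of these data known. Genes given library by library were, in each role group, those with the lowest and highest change between deficient and competent lines, those higher or not passing there, and the 3 with the largest change of KO 2 against KO 1 and of CRISPR Control against WT. The lists of related genes are given by their lowest and highest changes.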

Additional observations from a re-analysis of the deposited data

Results flagged for a closer look

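In 19 of the 21 genes given library by library, the change of KO 2 against WT differed from that of KO 1 against WT, tested as KO 2 against KO 1 with limma (adjusted over all genes, n = 3 libraries a line). All 19 were lower in KO 2, where 20.1% of all genes were lower than in KO 1 and 18.1% were higher. The rule for the 21 genes also took the 3 with the largest change in this same comparison, so the count is partly set by that choice. The difference in log2 fold change was -1.13 for CENPA, -0.90 for CENPF, -0.90 for BIRC5, -0.88 for SPC25, -0.84 for NCAPH and -0.78 for SKA1. It was -0.74 for NCAPG2, -0.73 for SMC2, -0.72 for CDCA8, -0.65 for NCAPD3, -0.64 for ZWINT, -0.62 for NDC80 and -0.62 for MAD2L1. It was -0.58 for CENPU, -0.50 for PMF1, -0.48 for CENPO, -0.39 for CENPC, -0.37 for CENPJ and -0.34 for BUB3. The adjusted p ran from 8.83e-09 for CENPA to 0.0184 for CENPC. In CENPA, CENPC and NDC80 the change of KO 1 against WT was between 0.02 and 0.03. PMF1 was the 1 gene of these with opposite signs above 0.1 in size, 0.20 in KO 1 (adjusted p 0.131) and -0.31 in KO 2 (adjusted p 0.0131). MIS12 and SKA2 did not pass.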

How the results depend on the processing

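The number of the 40 genes that passed stayed within 1.5 times its main value in all alternatives run. With all libraries kept it ranged from 19 to 27 in KO 1 against WT, 35 to 39 in KO 2 against WT, 10 to 15 in CRISPR Control against WT, 22 to 25 in KO 1 and 36 to 38 in KO 2 against CRISPR Control, 30 to 36 in KO 2 against KO 1, and 37 to 38 between deficient and competent lines, where no fit to only the lines compared applied. In KO 1 against WT 19 passed with no filter on low genes, where 14.8% of the 35235 genes tested passed. With only the lines compared 27 passed, where 44.3% of all genes did. In the main setting these numbers were 22 and 35.5%. Without 1 library the number of the 40 genes ran from 16 to 24 in KO 1 against WT. In CRISPR Control against WT it ran from 10 to 18, and no share over all genes stands beside these ranges. On recovered reads edgeR called 10552 and DESeq2 10518 of all genes between deficient and competent lines. The number of the 40 genes whose deficient and competent libraries did not overlap was 16 in the main setting. It was 14 to 15 with the other scalings and 16 to 19 without 1 library, settings without a count over all genes here. The median change of the 40 genes minus that of all tested genes was followed next. It moved by more than its spread between replicates (SD 0.0549) with quantile normalization, from -0.615 to -0.536 in KO 2 against KO 1 and from -0.599 to -0.522 between deficient and competent lines, where the median of all genes itself moved to -0.053 and -0.025. Leaving out 1 library moved this difference most in KO 2 against WT, from -0.96 (without WT replicate 1) to -0.83, and in KO 1 against CRISPR Control, from -0.26 (without CRISPR Control replicate 1) to -0.16. It also moved there without CRISPR Control replicate 3 (-0.25), and in KO 2 against WT without KO 2 replicate 1 (-0.95). CENPC changed sign between deficient and competent lines with quantile normalization (-0.043) and without CRISPR Control replicate 3 (-0.012, with a range over left-out libraries of -0.012 to 0.136), never passing. Among the 21 genes given library by library, MIS12 and SKA2 lost and PMF1 gained its call in the settings named with them. The cause was not tested.

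Replicate numbers did not pair the samples. The 18 same-numbered pairs had deviations from their line means that correlated with r from -0.13 to 0.16, and 2 of them were over 0.1. With the replicate number as a block, 23 genes passed in KO 1 against WT, 38 in KO 2 against WT, 14 in CRISPR Control against WT and 38 between deficient and competent lines. Over all genes 35.0%, 54.5%, 53.1% and 65.8% passed with the block in these comparisons, in that order. The effect of depth on the calls was not tested, and 3 libraries a line limit the precision of each mean.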

Other observations

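The proliferation markers held 5 genes of S phase and 10 of G2 and M phase. In KO 1 against WT all 5 S phase genes were lower, with log2 fold changes from -0.79 to -0.41 and a median of -0.65, and 4 of the 10 G2 and M phase genes, from -0.59 to -0.05 with a median of -0.17, so the ranges overlapped. Against CRISPR Control 4 of 5 and 6 of 10 were lower in KO 1, with medians of -0.60 and -0.31. In KO 2 against WT all 5 and all 10 were lower, with medians of -1.04 and -1.12. Of all genes, 17.5%, 31.3% and 27.9% were lower in these comparisons, in that order. The comparisons share control libraries, and the difference between the phases was not tested.

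Cohesin holds sister chromatids together until anaphase. Of 13 cohesin genes 11 were lower and 1 was higher between deficient and competent lines, with a median of -0.34, from -0.84 to 0.35, next to -0.65, from -0.92 to -0.46, for the 7 condensin genes of the set. CDCA5, which encodes the cohesin protector sororin, was lowest at -0.84 (adjusted p 6.7e-11, SE 0.05). MAU2, a subunit of the cohesin loader, was the higher gene, at 0.35 (adjusted p 0.000232, SE 0.07), and its change against WT was 0.20 in KO 1 (adjusted p 0.129), 0.12 in KO 2 (adjusted p 0.307) and -0.37 in CRISPR Control (adjusted p 0.00351). In KO 1 against WT 4 cohesin genes were lower and 9 did not pass, and in KO 2 these numbers were 9 and 4. Of all genes, 17.5% were lower in KO 1 and 27.9% in KO 2 against WT. Between deficient and competent lines 33.0% of all genes were lower and 32.9% higher. The difference between cohesin and condensins was not tested.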
